A study of Homo sapiens with 6 samples.

Results

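The genes described here are 161 long intergenic RNAs of LoVo cells that carry a numbered LINC name, followed in control cells and in cells depleted of the splicing factor SRSF11. They were chosen by measured values. A gene entered when the count table listed it as a lincRNA under the letters LINC and a number alone, and when it had at least 10 counts in at least 3 of the 6 libraries. Of 1710 genes with such a name and biotype, 161 passed, 1549 did not pass, and 1071 had 0 counts in each library. The count minimum was met in all 6 libraries by 131 of the 161. No gene passed through si‐NC libraries alone. LINC02600 passed through si‐SRSF11 libraries alone, with 6, 5 and 8 counts in si‐NC and 16, 12 and 12 in si‐SRSF11, and it was not called (log2 fold change 0.97 ± 0.44 SE).

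LoVo is an established human colorectal adenocarcinoma line that was derived from a metastasis. One group was transfected with a negative control siRNA (si‐NC, n = 3) and the other with an siRNA against SRSF11 (si‐SRSF11, n = 3), and both groups otherwise share the line and the transfection. The labels give neither dose nor time after transfection. RNA was captured on poly-T beads before library preparation, so the counts are of polyadenylated RNA. The study speaks of 3 pairs of independent RNA samples, and the main test did not use pairs. The labels do not say whether the samples of a group came from separate cultures. The p-values thus measure the spread between these samples, which may be technical.

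LINC is the root that gene nomenclature gives to long noncoding RNAs lying between protein-coding genes, and the number carries no functional meaning. Such RNAs are transcribed by RNA polymerase II, capped, often spliced and polyadenylated, and many are kept at low level because the nuclear exosome and its adaptors degrade them. A few act on chromatin, on RNA-binding proteins or on neighbouring genes, while for most no function is known. SRSF11 is a serine/arginine-rich protein of nuclear speckles that takes part in the choice of exons.

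SRSF11 itself had 1271, 1281 and 1363 counts in the si‐NC libraries and 789, 789 and 807 in the si‐SRSF11 libraries. It was left at 57.2% of the si‐NC level (log2 fold change -0.81 ± 0.05 SE, edgeR adjusted p = 6.1e-10). The libraries held 14369525 to 16685719 counts, with TMM factors of 0.979 to 1.02. Of 10 colorectal epithelial markers, 8 had at least 100 counts in each library, whereas KRT20 and CEACAM5 had 6 to 20, so these markers of differentiated colon and of carcinoma were near absent. The summed level of the 10 was 5316 to 5652 CPM (counts scaled to a common library size) in si‐NC and 5402 to 5777 in si‐SRSF11. KRT8 alone made up 3140 ± 99.1 and 3298 ± 193 CPM (SD) of it. Of the 10, CDX2 (0.40 ± 0.07) and CDX1 (0.31 ± 0.06) were called higher and 0 lower. Over all genes tested, 13.2% were called higher and 11.4% lower. For 11 markers of leukocytes, fibroblasts, endothelium and hepatocytes the sums were 21.2 to 24.8 and 25.8 to 31.1 CPM. PTPRC, which marks leukocytes, was at 0, and COL1A2 and COL3A1 of fibroblasts had at most 2 counts in a library. The other fibroblast markers of the list, COL1A1 (179 to 206 counts) and PDGFRB, had at least 100 counts in each library. Of the 4 markers with enough counts for the test, PDGFRB rose (114 to 148 counts in si‐NC and 221 to 246 in si‐SRSF11), while COL1A1 (-0.12 ± 0.11), VWF (-0.83 ± 0.41) and PECAM1 (0.44 ± 0.46) were not called. The part of these markers in the results was not tested. In bulk RNA, fewer cells of a kind and less RNA per cell cannot be told apart.

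The 161 LINC RNAs were small in number of reads. Together they took 10364 to 10997 counts per library, which was 0.0719% ± 0.00099 (SD, n = 3) of all counts in si‐NC and 0.0659% ± 0.00147 in si‐SRSF11. On the CPM scale, after TMM scaling, their sum was 715, 716 and 706 in the si‐NC libraries and 674, 671 and 658 in the si‐SRSF11 libraries. The 3 si‐SRSF11 libraries lay below the 3 si‐NC libraries, and the sum was 6.27% lower (712 ± 5.52 against 668 ± 8.63 CPM, SD). The exact two-sided permutation test cannot go below p = 0.1 with 3 against 3 libraries. For the 1549 genes that did not pass the count minimum, the summed CPM was 52.5 ± 1.18 in si‐NC and 50.001 ± 2.67 in si‐SRSF11, and the groups overlapped.

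**Figure D1:**
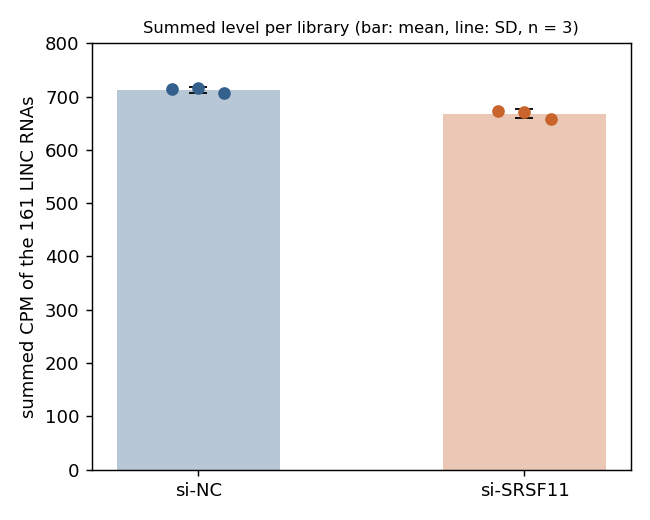
Summed CPM of the 161 LINC RNAs in each library, with bars for the group mean, lines for the SD (n = 3) and points for the libraries; the axis starts at 0. The si‐NC libraries sit at 706 to 716 CPM and the si‐SRSF11 libraries at 658 to 674 CPM, without overlap.

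Per library, the members had a mean of 7.83 to 520 counts, with a median of 30.8, against 331 for all genes tested. The standard error of the log2 fold change had a median of 0.28 over the members and 0.09 over all 15801 genes tested. The 10 members with the most counts carried 33.7% of the counts of the class, and the 27 members with a mean of at least 100 counts carried 55.9%. Per kb of exon, the median member was at 1.1 CPM per kb, and the median protein-coding gene at 5.86 CPM per kb. At the edge of the count minimum, the third highest library had 10 counts for LINC01271, LINC02065 and LINC01770, which passed, and 9 counts for LINC00574, LINC00524 and LINC02021, which did not.

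Of the 161 members, 21 (13.0%) passed an edgeR adjusted p under 0.05, where 24.6% of all genes tested did. Higher in si‐SRSF11 were 4 members, beside a background of 13.2%, and lower were 17, beside a background of 11.4%. Past the fold threshold of the study as well (absolute log2 fold change over 1) were LINC01963, which rose, and LINC00106, which fell, beside a background of 1.09%. Called higher were thus 2.48% of the members, a smaller share than in the whole table, and called lower 10.6%, a share near the background. Of the protein-coding genes 15.4% were called higher and 12.1% lower. The count past both thresholds rose to 4 without si‐NC replicate 2 or without si‐SRSF11 replicate 2, and fell to 1 with library size scaling. Without adjustment, 33 members (20.5%) had p under 0.05, against 36.3% of all genes.

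The median log2 fold change was -0.11 over the members and 0.0015 over all genes tested. A positive value was found for 59 members and a negative one for 102. The groups did not overlap for 53 members (32.9%), 35 lower and 18 higher in si‐SRSF11, where 38.8% of all genes did not overlap. The other 552 lincRNAs tested had a median of -0.14, with 16 called higher and 62 lower. The 930 antisense RNAs had a median of -0.18, with 9 called higher and 88 lower. Among 12770 protein-coding genes the median was 0.01, with 1963 called higher and 1539 lower. All 3 noncoding classes had a negative median, and the difference between the classes was not tested.

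**Figure D2:**
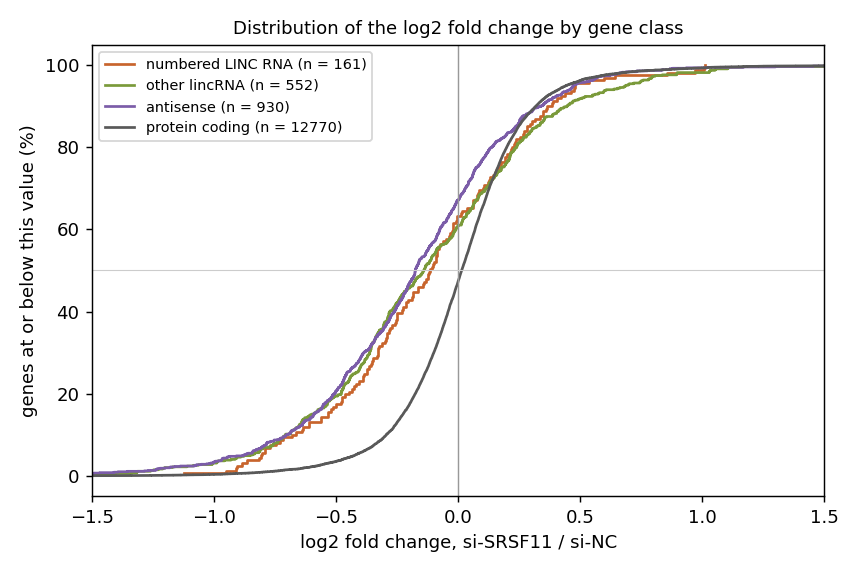
Cumulative share of genes (%) against the log2 fold change, si‐SRSF11 over si‐NC, for the 161 numbered LINC RNAs, 552 other lincRNAs, 930 antisense RNAs and 12770 protein-coding genes. The curves of the 3 noncoding classes cross 50% at -0.11, -0.14 and -0.18, and that of the coding genes at 0.01.

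Calls were more frequent among members with more counts. Below a mean of 20 counts, 0 of 43 members were called by edgeR (4.64% of the 733 coding genes of that level were), and 3 had an unadjusted p under 0.05. The groups did not overlap for 9 of the 43 (20.9%), a share near the 19.9% of coding genes of that level. DESeq2 gave no adjusted p for these 43. Between 20 and 50 counts, 7 of 62 members were called (11.3%, coding genes 10.04%). Between 50 and 100 counts, 3 of 29 were called (10.3%, coding genes 16.2%). At 100 counts or more, 11 of 27 members were called (40.7%, coding genes 31.4%). Of these 27, 2 were higher (7.41%, coding genes 17.6%) and 9 lower (33.3%, coding genes 13.8%). The median log2 fold change was -0.12, -0.11, -0.11 and -0.09 in these 4 bins, so it was negative at each level. Coding genes had medians of 0.05, -0.02, -0.03 and 0.02 in the same bins.

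**Figure D3:**
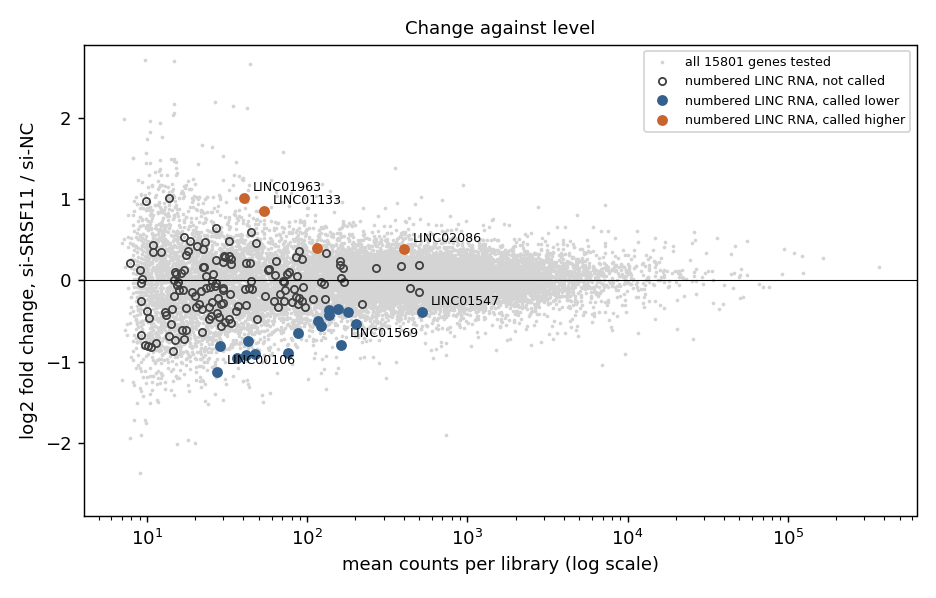
Log2 fold change, si‐SRSF11 over si‐NC, against mean counts per library on a log axis, for all 15801 genes tested (grey) and the 161 LINC RNAs (open circles not called, filled circles called at an edgeR adjusted p under 0.05). The 17 members called lower and the 4 called higher have means of 27.5 to 520 counts, and genes with few counts spread more widely.

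The promoters of 6 called members are shown because the members moved in opposite directions and their start regions differ in base composition. The sequences are from RefSeq (GRCh38.p14), which held a promoter for 116 of the 161 members. Each runs 5′ to 3′ on the strand of the gene, from 250 bases before to 50 after the start, and is in lower case. Capitals mark the motifs searched on both strands, GGGCGG (the core of an Sp1 box), the letters CCAAT of the box of that name, TATAAA of the classical core promoter and TGACTCA of the AP-1 site. The motifs were allowed to overlap each other, and a match is only a match of letters. LINC01569 (chr16:4253740-4254039, minus strand), LINC01547 (chr21:44939864-44940163, minus strand), LINC01006 (chr7:156640486-156640785, minus strand) and LINC00346 (chr13:110870259-110870558, minus strand) fell, while LINC01133 (chr1:159960974-159961273, plus strand) and LINC00265 (chr7:39733318-39733617, plus strand) rose.
LINC01569: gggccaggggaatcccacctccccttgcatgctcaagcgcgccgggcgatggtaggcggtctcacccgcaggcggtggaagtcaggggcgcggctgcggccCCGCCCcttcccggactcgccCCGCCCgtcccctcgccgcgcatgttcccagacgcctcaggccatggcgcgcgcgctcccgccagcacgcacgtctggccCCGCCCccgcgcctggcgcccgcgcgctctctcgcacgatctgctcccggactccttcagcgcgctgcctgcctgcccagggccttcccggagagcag
LINC01547: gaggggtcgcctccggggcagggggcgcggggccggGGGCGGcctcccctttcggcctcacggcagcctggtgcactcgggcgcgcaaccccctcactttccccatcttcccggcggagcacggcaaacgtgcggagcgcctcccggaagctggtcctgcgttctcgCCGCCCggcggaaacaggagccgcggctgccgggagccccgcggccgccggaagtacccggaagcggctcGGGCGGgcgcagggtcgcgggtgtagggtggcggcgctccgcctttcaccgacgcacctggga
LINC01006: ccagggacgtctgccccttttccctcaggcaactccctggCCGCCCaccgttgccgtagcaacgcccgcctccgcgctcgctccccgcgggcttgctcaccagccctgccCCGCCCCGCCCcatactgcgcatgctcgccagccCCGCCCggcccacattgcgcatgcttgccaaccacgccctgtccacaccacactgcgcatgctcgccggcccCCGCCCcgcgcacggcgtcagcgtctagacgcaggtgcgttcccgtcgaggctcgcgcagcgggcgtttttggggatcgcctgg
LINC00346: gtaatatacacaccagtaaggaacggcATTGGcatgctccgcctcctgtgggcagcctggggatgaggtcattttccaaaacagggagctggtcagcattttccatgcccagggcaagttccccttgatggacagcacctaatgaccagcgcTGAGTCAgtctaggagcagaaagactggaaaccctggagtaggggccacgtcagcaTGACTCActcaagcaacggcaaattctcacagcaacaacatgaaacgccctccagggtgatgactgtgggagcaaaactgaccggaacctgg
LINC01133: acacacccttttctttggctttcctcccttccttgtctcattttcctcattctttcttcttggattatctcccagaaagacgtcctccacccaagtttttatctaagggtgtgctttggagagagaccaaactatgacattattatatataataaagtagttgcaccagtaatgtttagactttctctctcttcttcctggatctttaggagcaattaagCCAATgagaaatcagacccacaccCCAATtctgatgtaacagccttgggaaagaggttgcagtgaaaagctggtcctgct
LINC00265: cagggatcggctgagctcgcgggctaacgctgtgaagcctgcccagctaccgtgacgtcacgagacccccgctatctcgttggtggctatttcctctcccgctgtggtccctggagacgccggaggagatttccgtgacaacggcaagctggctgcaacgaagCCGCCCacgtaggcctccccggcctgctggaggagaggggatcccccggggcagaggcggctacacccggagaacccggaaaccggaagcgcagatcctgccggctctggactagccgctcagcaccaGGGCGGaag

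LINC01569, LINC01547 and LINC01006 have promoters of 76.0%, 76.3% and 72.7% G and C with 3, 3 and 5 GGGCGG matches. LINC00265, which rose, is also rich in G and C (66.7%) with 2 such matches. LINC01133 is at 41.3% G and C with 1 CpG and 2 CCAAT matches, and LINC00346 at 54.0% with 2 TGACTCA matches. GGGCGG was found in 48.3% of the 116 member promoters and in 45.0% of all 35116 promoters of the same length. CCAAT was found in 42.2% and 34.6%, TATAAA in 7.76% and 11.5%, and TGACTCA in 6.9% and 4.95%. Among the 17 called members with a promoter, 8 held GGGCGG (47.1%), 5 CCAAT (29.4%), 3 TATAAA (17.6%) and 1 TGACTCA (5.88%). Among the 99 others the numbers were 48 (48.5%), 44 (44.4%), 6 (6.06%) and 7 (7.07%). The median content of G and C was 67.3% in the called and 60.7% in the others, and no difference was tested.

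Among the 17 members that fell, the log2 fold change ranged from -1.12 to -0.36 with a median of -0.64, which left 45.9% to 78.1% of the si‐NC level. The lowest adjusted p belonged to LINC01569, a gene of 4 exon blocks on chromosome 16 (4243943 to 4253817, minus strand, hg38). It had 216, 190 and 198 counts in the si‐NC libraries and 124, 137 and 111 in the si‐SRSF11 libraries, so the groups lay well apart. The level went from 13.4 ± 1.33 to 7.72 ± 0.831 CPM (log2 fold change -0.79 ± 0.12 SE, edgeR adjusted p = 6.2e-05). LINC01547 on chromosome 21 was the member with the most counts and the highest level per length (12.6 CPM per kb). Its counts were 582, 563 and 576 in si‐NC and 478, 453 and 469 in si‐SRSF11, again with no overlap. The fold change was smaller and its error was small (-0.39 ± 0.07, edgeR adjusted p = 0.00035). Its level per kb stood above that of 71.6% of the protein-coding genes. LINC01006, now named RNF32-DT because it starts beside RNF32, had 192, 241 and 265 counts in si‐NC and 176, 173 and 163 in si‐SRSF11 (-0.53 ± 0.11, edgeR adjusted p = 0.0014).

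LINC00513, an RNA reported as a positive regulator of interferon signalling in lupus, had 80, 99 and 110 counts in si‐NC and 50, 58 and 58 in si‐SRSF11. All 3 si‐SRSF11 libraries were below all si‐NC libraries (-0.89 ± 0.17, edgeR adjusted p = 0.00057). LINC00346, renamed PRECSIT for its regulation by p53 and its link to STAT3, had 139, 135 and 150 counts in si‐NC and 111, 91 and 103 in si‐SRSF11 (-0.56 ± 0.14, edgeR adjusted p = 0.0037). LINC00337, now ICMT-DT, had 88, 106 and 117 counts in si‐NC and 62, 67 and 83 in si‐SRSF11 (-0.64 ± 0.16, edgeR adjusted p = 0.0055). In both RNAs the highest si‐SRSF11 library stayed under the lowest si‐NC library. LINC00476, now ERCC6L2-AS1, had 126, 129 and 147 counts in si‐NC and 106, 97 and 99 in si‐SRSF11 (-0.50 ± 0.13, edgeR adjusted p = 0.0082). It shares 7.98% of its exon bases with ERCC6L2 and AL354861.3 on the opposite strand.

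The largest fall was that of LINC00106, a short gene of 4 exon blocks and 592 exon bases on the X chromosome (1396427 to 1399402), in the pseudoautosomal region. Its counts were 30, 38 and 43 in si‐NC and 16, 17 and 21 in si‐SRSF11. The level dropped to 45.9% of si‐NC (-1.12 ± 0.28, edgeR adjusted p = 0.005), and the groups did not overlap. LINC02449 followed with 50, 42 and 50 counts in si‐NC and 23, 33 and 22 in si‐SRSF11 (-0.95 ± 0.25, edgeR adjusted p = 0.007). LINC01140 had 54, 62 and 64 counts in si‐NC and 38, 34 and 30 in si‐SRSF11 (-0.91 ± 0.21, edgeR adjusted p = 0.003), and LINC01356 had 62, 46 and 51 against 27, 35 and 28 (-0.91 ± 0.23, edgeR adjusted p = 0.0062). These 3 share 18.0%, 17.4% and 21.9% of their exon bases with FAM86FP, AC093155.3 and AL390729.1, so their reads may belong in part to the other gene. AC093155.3 lies on the same strand as LINC01140, the others on the opposite strand, and the strand used in counting is not given in the sources used here. LINC01356 lost its call without si‐NC replicate 1 (edgeR adjusted p = 0.053).

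The remaining lower calls were LINC01703 (-0.75 ± 0.22), LINC00494 (-0.43 ± 0.14), LINC02323 (-0.39 ± 0.13), LINC01521 (-0.36 ± 0.12), LINC00910 (-0.36 ± 0.12) and LINC01488 (-0.81 ± 0.28). Their edgeR adjusted p lay between 0.017 and 0.038, and each lost its call when 1 library was left out. LINC02323 had 173, 192 and 232 counts in si‐NC and 161, 137 and 186 in si‐SRSF11, so that on the count scale the groups overlapped, although on the CPM scale they did not. Its call was lost without si‐NC replicate 3 (edgeR adjusted p = 0.16) and without si‐SRSF11 replicate 2 (0.15). LINC01703 was lost without si‐NC replicate 2 (edgeR adjusted p = 0.095) and without si‐SRSF11 replicate 2 (0.052). LINC01703 had 49, 63 and 46 counts in si‐NC and 32, 33 and 35 in si‐SRSF11.

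LINC01521 had 145, 152 and 153 counts in si‐NC and 124, 118 and 130 in si‐SRSF11, and its call was lost without any of the 3 si‐NC libraries or without si‐SRSF11 replicate 2 (edgeR adjusted p up to 0.11). LINC00494 had 150, 152 and 154 counts in si‐NC and 137, 124 and 100 in si‐SRSF11, a wider spread than in si‐NC, and its call was lost without any library but si‐SRSF11 replicate 1 (up to 0.11). LINC00910 had 184, 153 and 173 counts in si‐NC and 147, 143 and 134 in si‐SRSF11. It was lost without si‐NC replicate 1 or 3 or si‐SRSF11 replicate 2 or 3 (edgeR adjusted p up to 0.20). LINC01488 had 34, 42 and 31 counts in si‐NC and 20, 27 and 18 in si‐SRSF11, and was lost without si‐NC replicate 1 or 2 or si‐SRSF11 replicate 1 or 3 (edgeR adjusted p up to 0.15). In each of these 4 RNAs the groups did not overlap. With all 6 libraries, DESeq2 did not call LINC01521, LINC00910 and LINC01488 (DESeq2 adjusted p = 0.073, 0.073 and 0.074). LINC00494 kept its call by DESeq2 (adjusted p = 0.045). LINC01521 also lost its call without the filter on low counts (edgeR adjusted p = 0.057).

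The 4 members that rose lie on 4 chromosomes. LINC01963, a single-exon gene of chromosome 2 (216217045 to 216220192, on the plus strand), gave 29, 21 and 27 counts in si‐NC and 54, 56 and 56 in si‐SRSF11. Its level went from 1.7 ± 0.31 to 3.44 ± 0.0093 CPM (log2 fold change 1.01 ± 0.23 SE, edgeR adjusted p = 0.0026). LINC01133, reported to bind the splicing factor SRSF6 and to restrain epithelial to mesenchymal transition in colorectal cancer cells, had 37, 28 and 45 counts in si‐NC and 66, 74 and 72 in si‐SRSF11. That was a rise to 181% of the si‐NC level (0.85 ± 0.21, edgeR adjusted p = 0.0042), with no overlap. LINC02086, near the HOXB genes on chromosome 17, had 305, 362 and 341 counts in si‐NC and 456, 474 and 473 in si‐SRSF11 (0.39 ± 0.08, edgeR adjusted p = 0.00099). LINC00265 had 84, 110 and 93 counts in si‐NC and 132, 131 and 141 in si‐SRSF11 (0.40 ± 0.14, edgeR adjusted p = 0.036), and this call was lost under 8 of 13 other settings, among them DESeq2 (adjusted p = 0.087) and the removal of any library but si‐NC replicate 2.

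**Figure D4:**
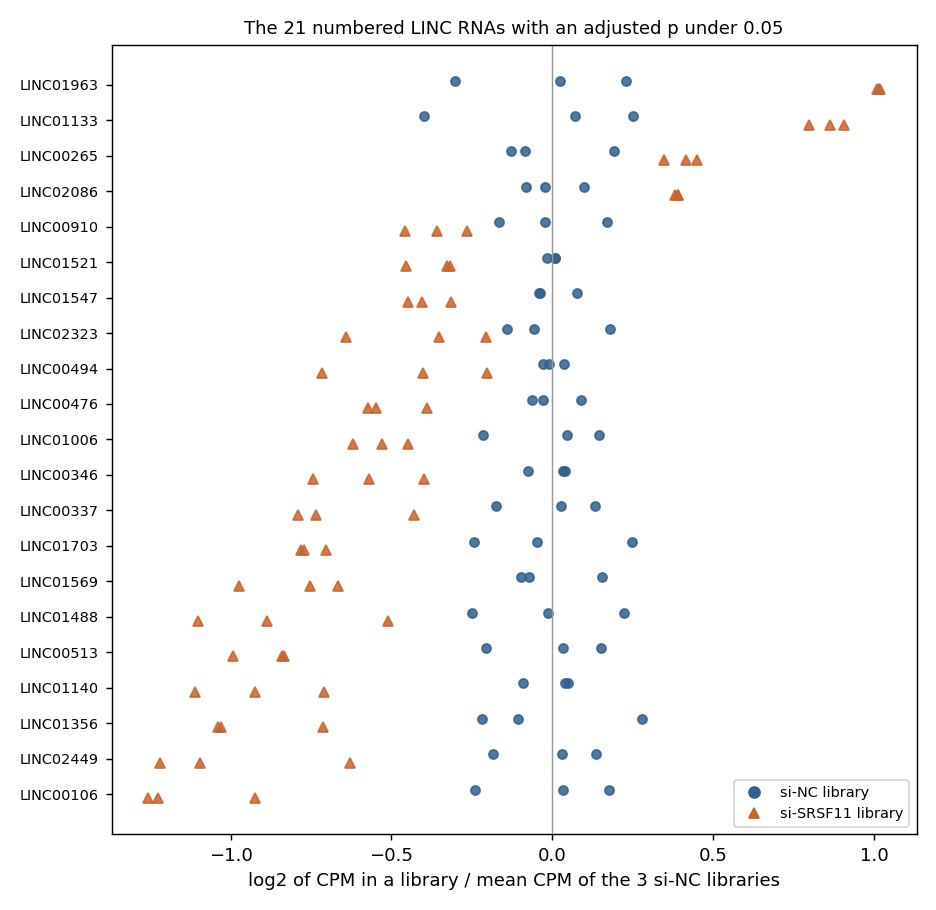
The 21 called LINC RNAs, with the log2 of the CPM in each library over the mean CPM of the 3 si‐NC libraries (circles si‐NC, triangles si‐SRSF11). LINC01963, LINC01133, LINC00265 and LINC02086 have their 3 triangles right of the circles, the other 17 have them to the left, and no gene shows overlap.

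For each of these 21 members the groups did not overlap on the CPM scale, beside the background of 38.8% over all genes, called or not. The exact permutation test then gave its smallest value, p = 0.1. As the members were called from the same libraries, neither is separate support. The 21 members lie on 14 chromosomes. No called member lies within 100 kb of another of the 161. The 140 members that were not called had a median of -0.09, 85 negative and 55 positive, and 32 of them had groups without overlap, 18 lower and 14 higher. LINC02038, which had the largest log2 fold change of these, was named after its values were seen. It had 7, 12 and 7 counts in si‐NC and 21, 17 and 18 in si‐SRSF11 (1.01 ± 0.39, edgeR adjusted p = 0.063). DESeq2 gave it no adjusted p.

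The annotated ends of 6 called members are shown because poly-T capture depends on the poly(A) tail added after them. These 6 belong to the 8 of the 21 called members whose end holds a hexamer described below, so they do not stand for the called members as a set. Each line gives the last 50 bases of the longest annotated transcript (GENCODE 29, on hg38), 5′ to 3′ on the strand of the gene, and capitals mark the last AATAAA, the polyadenylation hexamer, or in its absence the last match to the variant ATTAAA. In LINC01133 further ATTAAA letters follow the marked AATAAA.
LINC01569: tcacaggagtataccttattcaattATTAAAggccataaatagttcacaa
LINC01006: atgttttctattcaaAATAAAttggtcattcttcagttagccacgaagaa
LINC01140: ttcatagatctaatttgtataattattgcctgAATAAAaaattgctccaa
LINC02323: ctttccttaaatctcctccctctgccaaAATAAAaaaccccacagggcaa
LINC01963: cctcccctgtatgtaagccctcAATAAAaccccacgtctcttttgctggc
LINC01133: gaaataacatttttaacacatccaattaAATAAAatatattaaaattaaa

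The hexamer AATAAA was found in the last 50 bases of 70 members (43.5%), of 43.5% of the other lincRNAs and of 61.9% of the protein-coding genes tested. Another 18 members had ATTAAA alone. Of the 21 called members 8 held either form, both falling ones (LINC01569, LINC01006, LINC01140, LINC02323) and rising ones (LINC01963, LINC01133) among them. The other called members, which were the larger part, held neither. AATAAA was found in 7 called members (33.3%), in 63 of the 140 not called (45.0%) and in 56.3% of all genes tested. ATTAAA alone was found in 1 called member (4.76%), in 17 not called (12.1%) and in 13.2% of all genes tested. No difference was tested.

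By level per length, the 10 highest members were LINC01547 (12.6 CPM per kb), LINC01003 (8.05), LINC00239 (7.5), LINC02323 (7.23), LINC02298 (6.96), LINC02313 (6.74), LINC01315 (6.66), LINC02086 (6.66), LINC00467 (6.33) and LINC02562 (5.8). Of these, 3 were called, LINC01547 and LINC02323 lower and LINC02086 higher. LINC01003 had 205, 234 and 270 counts in si‐NC and 181, 201 and 234 in si‐SRSF11 (-0.29 ± 0.11, edgeR adjusted p = 0.06). It passed the threshold with library size scaling (0.035), with the replicate block (0.038), and without si‐NC replicate 1 (0.048) or si‐SRSF11 replicate 3 (0.019). LINC01315 had 104, 126 and 108 counts in si‐NC and 143, 159 and 152 in si‐SRSF11 (0.33 ± 0.13, edgeR adjusted p = 0.06) and passed without si‐NC replicate 2 (0.044). For LINC02298, with 127, 120 and 130 counts in si‐NC and 124, 126 and 138 after depletion, the value was -0.05 ± 0.13.

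A list of 44 LINC RNAs studied in cancer held 20 members. Of these 20, 2 were called higher (LINC01133, LINC00265), 2 lower (LINC00346, LINC00337) and 16 not, with a median log2 fold change of 0.15, beside a background of 24.6% called. With the listed RNAs of other biotypes, 30 were tested, 3 called higher and 7 lower, and the median was 0.0081. Among the 20 members, the 8 with the most counts were LINC00467, LINC00662, LINC00909, LINC00667, LINC00460, LINC00941, LINC00294 and LINC00847. Of these 8, 0 passed the test by edgeR or DESeq2, with 1 at an unadjusted p under 0.05. Some listed RNAs of other biotypes had more counts than these 8, both called and not called ones. LINC00460, reported to promote spread of colorectal tumours, had 139, 158 and 160 counts in si‐NC and 170, 212 and 160 in si‐SRSF11 (0.16 ± 0.12), with overlap. LINC00662 had 318, 355 and 375 counts in si‐NC and 411, 413 and 435 in si‐SRSF11 (0.18 ± 0.08, edgeR adjusted p = 0.12), without overlap. LINC00467 had 414, 413 and 488 against 425, 439 and 450 (-0.09 ± 0.08), and LINC00941 had 129, 152 and 185 against 156, 189 and 163 (0.04 ± 0.13). In LINC00909, LINC00294 and LINC00847 the groups did not overlap either, at log2 fold changes of 0.15 ± 0.09, 0.23 ± 0.12 and 0.19 ± 0.12. Over all genes tested, 38.8% did not overlap. LINC00667 was at -0.02 ± 0.12.

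By position, 14 members start within 1 kb of a coding gene on the opposite strand, head to head and with 5′ ends that do not overlap, at 21 to 784 bases. Of the 14, 2 were called (14.3%, beside the background of 24.6%), LINC01547 and LINC01521, both lower. The median log2 fold change of the 14 was -0.24, with 11 negative and 3 positive. Of the 14 coding partners, 7 were called, each of them higher, where 15.4% of all protein-coding genes were. Over the 129 members with a tested nearest coding gene, that gene was called higher for 32. The median of the 14 partners was 0.19. In 13 of the 14 pairs the LINC RNA had the lower value. Over all members the median was -0.11, and over all protein-coding genes it was 0.01. Whether head-to-head pairs differ from other genes was not tested. In 3 more pairs the starts lie within 1 kb and the 5′ ends overlap, LINC01006 with RNF32 (373 bases), LINC00476 with ERCC6L2 (276 bases) and LINC00909 with ZNF407 (638 bases). With these, 4 of 17 members were called, all lower. ERCC6L2 (0.42 ± 0.14) and ZNF407 (0.64 ± 0.16) rose, and RNF32 was at -0.20 ± 0.14.

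LINC01547 (-0.39 ± 0.07) lies 97 bases from FAM207A, which was at 0.18 ± 0.10 (edgeR adjusted p = 0.18). LINC01521 (-0.36 ± 0.12) lies 545 bases from PATZ1, a zinc finger transcription factor, which rose (0.21 ± 0.06, edgeR adjusted p = 0.011). LINC01184, an abundant RNA with a mean of 499 counts, was at 0.19 ± 0.07 (edgeR adjusted p = 0.061), and its partner SLC12A2, the sodium, potassium and chloride cotransporter, rose (0.44 ± 0.05, edgeR adjusted p = 1.3e-06). PHETA1 rose by 0.57 ± 0.08 on the log2 scale, while LINC02356 beside it was at -0.37 ± 0.49. ZNF41, RAB2A, VWA1 and RPL21, a ribosomal protein gene with many processed copies that can take up its reads, rose as well, and their LINC partners were not called, with standard errors of 0.27 to 0.46. Where the RNA had few counts, its change could not be measured closely enough to set it beside that of the coding gene.

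**Figure D5:**
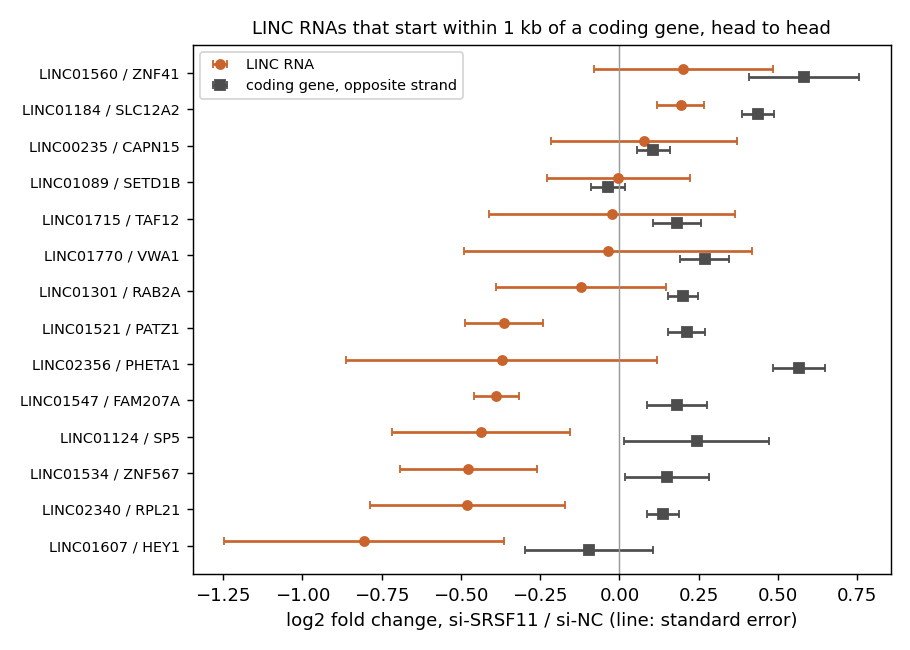
Log2 fold change, si‐SRSF11 over si‐NC, of 14 LINC RNAs (circles) and of the coding gene that starts within 1 kb on the opposite strand (squares), with lines for the standard error. LINC01547 and LINC01521 lie left of 0 with their partners FAM207A and PATZ1 right of it, and in 13 of 14 pairs the circle is left of the square.

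Apart from the 14 head-to-head members, of which 2 also overlap another coding gene, the span of 16 members overlaps a coding gene, 39 lie within 10 kb of one and 92 farther away. The medians were -0.08, -0.21 and -0.09 in these classes. Called were 4 of the 16, 6 of the 39 (15.4%) and 9 of the 92 (9.78%), beside the background of 24.6%. Over the 129 members whose nearest coding gene was tested, 67 pairs (51.9%) had the same sign. Pearson's r between the 2 log2 fold changes was 0.158 and Spearman's rho 0.153, given as a description over genes of the same 6 libraries. Both genes were called in 7 pairs, 3 in the same direction and 4 in opposite directions. LINC01488, also known as CUPID1, fell with its nearest coding gene MYEOV, 113936 bases away (-0.76), whereas LINC00476 (-0.50) fell beside ERCC6L2 and LINC00346 (-0.56) beside ANKRD10, both of which rose (0.42 and 0.28). LINC02086 (0.39) and LINC01963 (1.01) rose beside HOXB7 (0.25) and XRCC5 (0.19), a homeobox gene and a subunit of Ku, which rose too.

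In the annotation, 114 members share no exon base with another gene and 47 do, 38 of them with a gene on the opposite strand. Of the 114, 13 were called (11.4%, 3 higher and 10 lower) at a median of -0.12. Of the 47, 8 were called (17.02%, 1 higher and 7 lower) at a median of -0.09. Over all genes tested 24.6% were called, 13.2% higher and 11.4% lower. More than 10% of the windows of 100 bases were found in another gene for 19 members, among them 1 called one, LINC01356. The called genes otherwise had at most 6.47% of such windows (LINC02449), and LINC00265 had 3.42%, shared with the pseudogenes GTF2IP12 and GTF2IP13. Of the 8 called members with shared exon bases, 3 shared over 10%, and LINC00337 shared 3.77% with ICMT.

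Genes that process or degrade long noncoding RNAs were read from the same fit as a list of 58, all of which were tested. Of these, 9 were called higher and 5 lower (14 of 58, a share close to the background of 24.6%), with a median log2 fold change of 0.06. In cleavage and polyadenylation, CPSF6, a subunit of cleavage factor I that steers the choice of poly(A) site, rose from 42.4 ± 2.99 to 68.9 ± 0.962 CPM (0.70 ± 0.06, edgeR adjusted p = 2.9e-08). SYMPK, the scaffold symplekin, rose (0.22 ± 0.05), while CPSF4 and CPSF2, subunits of the cleavage and polyadenylation specificity factor, fell (-0.35 ± 0.06 and -0.25 ± 0.06). SRRT, which joins the cap-binding complex to the nuclear exosome, rose from 91.6 ± 3.71 to 116 ± 3.83 CPM (0.33 ± 0.05, edgeR adjusted p = 4.1e-05). METTL14, a subunit of the m6A methyltransferase, rose (0.40 ± 0.09). Of 13 exosome genes 2 were called, both lower, and of 14 Integrator genes 2 higher and 1 lower.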

How the data were processed

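Poly(A) RNA of LoVo cells under si‐NC or si‐SRSF11 (n = 3 each) was sequenced by the authors as 150 bp paired-end reads. The deposited table holds raw counts per gene, with no normalization. The labels name the build hg38, and the aligner, the counting program and its strand setting are not given in the sources used here. The identifiers, coordinates and exon lengths of all 58735 rows match GENCODE 29. The 15801 genes that reached 10 counts in 3 or more libraries were scaled by TMM and tested with edgeR (version 4.0.16, R version 4.3.3), glmQLFit and glmQLFTest, on condition alone. The p-values were adjusted by Benjamini-Hochberg over all genes tested, and the call was an adjusted p under 0.05. CPM are TMM-scaled, ± gives the SD for levels and the standard error for log2 fold changes. This standard error was computed back from the test, as the absolute log2 fold change over the square root of the F value of glmQLFTest. The fits were checked on simulated data. DESeq2 (version 1.42.0), other scalings and filters, a replicate block and the removal of each library were the alternatives.

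The members and lists were chosen with earlier results of these data known. Members are named if called (up to 15 in each direction by adjusted p), past both thresholds, among the 10 highest in CPM per kb, among the 8 known LINC RNAs with the most counts, or at the edge of the count minimum, with their nearest or head-to-head coding genes. Up to 6 machinery genes with the smallest adjusted p are named too, and LINC00910, LINC01488, LINC02038 and LINC02600 and further pairs were named after their values were seen. No column was left out. Markers are given by counts and sums, with few named, and 1 marker's own value is not reported here.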

Additional observations from a re-analysis of the deposited data

How the results depend on the processing

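No called result changed its direction, while LINC00239, LINC00667, LINC00941 and LINC02313, which were not called, changed sign under some settings. Of the 21 calls, 13 were kept under each of the 13 other settings and 8 were lost under some (LINC00265, LINC00494, LINC00910, LINC01356, LINC01488, LINC01521, LINC01703 and LINC02323). The number of called members was 17 by DESeq2 and 15 to 19 when 1 library was left out. It was 13 among members whose exons overlap no other gene, which are fewer genes. The number past both thresholds was 1 with library size scaling and 2 to 4 without 1 library. The median log2 fold change was -0.15 with library size scaling, -0.13 with TMM from protein-coding genes only, and -0.16 to -0.093 without 1 library. The summed level, -0.09 on the log2 scale, was -0.11 to -0.09 without 1 library. Over 5 other settings it ranged from -0.13, with library size scaling, to -0.08. The sum without the member with the most counts was among these 5. Library size scaling moved the median of all genes to -0.03. The cause was not tested. Called machinery genes numbered 10 to 14 without 1 library. The labels do not say whether equal replicate numbers mark pairs, and the values do not settle it. Deviations of same-numbered libraries correlated at 0.015, 0.036 and 0.04, and those of differently numbered ones at -0.034 to -0.0031. Each library thus correlated best, though weakly, with its own number. A fit with the replicate block called 22 members. With a median of 30.8 counts per library, the typical member had a standard error of 0.28. LINC01534, with a mean of 48.8 counts, was not called at -0.48 ± 0.22. The part of depth in the number of calls was not tested.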
